A study of Mus musculus with 6 samples.

Results

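The genes described here encode ATP-dependent chromatin remodellers of the BAF, ISWI, CHD, NuRD and INO80 families. They are a fixed list of 40 gene symbols that was matched to the gene identifiers of the files through GENCODE M21. All 40 were found among the 55450 genes listed per library. The list holds 17 subunits of BAF-type complexes, 3 genes of the ISWI and Smarcad1 group, 5 CHD genes outside NuRD, 13 NuRD subunits and 2 genes of the INO80 family. The rule goes by symbol and uses no measured value.

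RNA was taken from mouse embryonic stem cells of the C57BL6 strain, which the labels trace to embryos of stage E3.5. The knockout group carried the genotype Hoxd12-/- and the control group was wild type, with 3 libraries each. Both groups grew in stem cell medium with 2i, inhibitors of MEK and GSK3 that keep the cells naive, and received no other treatment named in the labels. The labels do not say how many clones or cultures stand behind a group. The p-values therefore cover the variation among these libraries, and that variation may be technical.

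Chromatin remodellers use the energy of ATP to slide, evict or exchange nucleosomes. BAF (the mammalian SWI/SNF complex) opens chromatin at enhancers and promoters. In embryonic stem cells it is built around the ATPase Smarca4, and its paralogue Smarca2 is used in many differentiated cells. NuRD joins a CHD-type ATPase to histone deacetylases and is needed for stem cells to leave self-renewal. ISWI, the other CHD proteins and INO80 space nucleosomes, follow transcribing polymerase or exchange histone variants.

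The libraries held 5412577 to 6280934 expected counts, and the level of 3 counts was 0.462 to 0.567 CPM, with counts scaled by the TMM-adjusted library size as in all CPM values given here. That limit covers counting error only. The targeted gene Hoxd12 had 0 counts in all 6 libraries, so its level cannot check the genotype labels. Summed over 12 stem cell markers, expression was 9577 to 10090 CPM in the knockout and 9465 to 10080 CPM in wild type, of which Dppa5a alone gave 4895 to 5631 CPM over all libraries. Within that list Zfp42 rose (log2 fold change 0.29, adjusted p = 1.43e-05 by edgeR), Nanog fell (-0.39, adjusted p = 0.00167) and the other 10 were not called. Of 12 fibroblast markers, Col3a1, Postn, Lum and Dcn had 0 counts in every library, and the sum of the list was 15.3 to 19.2 CPM in the knockout and 17.8 to 23.9 CPM in wild type, with 1 lower (Thy1). The 8 trophectoderm markers summed to 80.4 to 84.5 CPM in the knockout and 87.1 to 95.6 CPM in wild type, with 0 called, and the 8 neural markers to 58.3 to 62.2 and 65.3 to 70.7 CPM, with 1 lower (Tubb3). The 8 primitive endoderm markers summed to 28.7 to 31.1 CPM in the knockout and 25.3 to 33.9 CPM in wild type. In that list Gata4 rose (log2 fold change 1.10, adjusted p = 0.0247 by edgeR), at 1.30 to 6.72 CPM over all libraries. The 8 blood markers summed to 53.6 to 58.3 CPM in the knockout and 51.2 to 56.2 CPM in wild type, with 0 called. The part of such cells in the results below was not tested.

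Levels between genes are compared in TPM, which is scaled by transcript length. Among BAF subunits, the ATPase Smarca4 had 33.7, 28.9 and 33.8 TPM in the knockout libraries and 29.7, 29.0 and 26.6 TPM in wild type. Smarca2 had 0.720, 0.490 and 0.650 TPM in the knockout and 0.410, 0.370 and 1.39 TPM in wild type. Smarca4 thus made up 98.1% of the summed TPM of both ATPases in the knockout and 97.5% in wild type. Smarca2 was the 1 gene of the 40 that did not pass the filter on low counts, and it was not tested.

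Other BAF paralogues were uneven as well. Smarcc1 averaged 29.3 TPM over all libraries and its paralogue Smarcc2 5.38 TPM. Of the Smarcd subunits, which link the complex to transcription factors, Smarcd1 (33.7 TPM) and Smarcd2 (33.3 TPM) overlapped in their ranges, and Smarcd3, known from heart and muscle, averaged 6.18 TPM. Arid1a, the large subunit that defines the canonical form of BAF, averaged 9.00 TPM against 1.35 TPM for its paralogue Arid1b. Among the 17 BAF genes of the list, the most abundant transcript was Smarce1 (153 TPM), a DNA-binding subunit with an HMG domain, followed by Smarcb1 (83.5 TPM), a core subunit that contacts the nucleosome.

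NuRD subunits gave the largest summed level of these groups, 900.4 ± 48.8 TPM in the knockout and 828.0 ± 7.34 TPM in wild type (SD, n = 3). On the TPM scale the median of all tested genes was itself shifted by 0.10 (log2, with 1 TPM added). The histone chaperones Rbbp4 (155 TPM) and Rbbp7 (133 TPM) and the CpG-binding-domain protein Mbd3 (146 TPM) led, ahead of the deacetylases Hdac1 (102 TPM) and Hdac2 (74.1 TPM). Mbd2, which binds methylated DNA and replaces Mbd3 in a separate NuRD form, averaged 13.9 TPM. The ATPase Chd4 averaged 50.8 TPM and its paralogue Chd3 7.53 TPM. Of the Mta scaffold proteins, Mta3 averaged 66.7 TPM, Mta2 41.1 TPM and Mta1 33.7 TPM. Among the remaining ATPases, Smarcad1 (36.1 TPM), Smarca5 (23.8 TPM) and Chd8 (20.9 TPM) stood above Chd2, Chd9, Chd7 and Chd1 (7.76 to 3.89 TPM), above Ep400 (5.75 TPM) and Ino80 (4.47 TPM), and above Smarca1 (0.848 TPM).

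**Figure D1:**
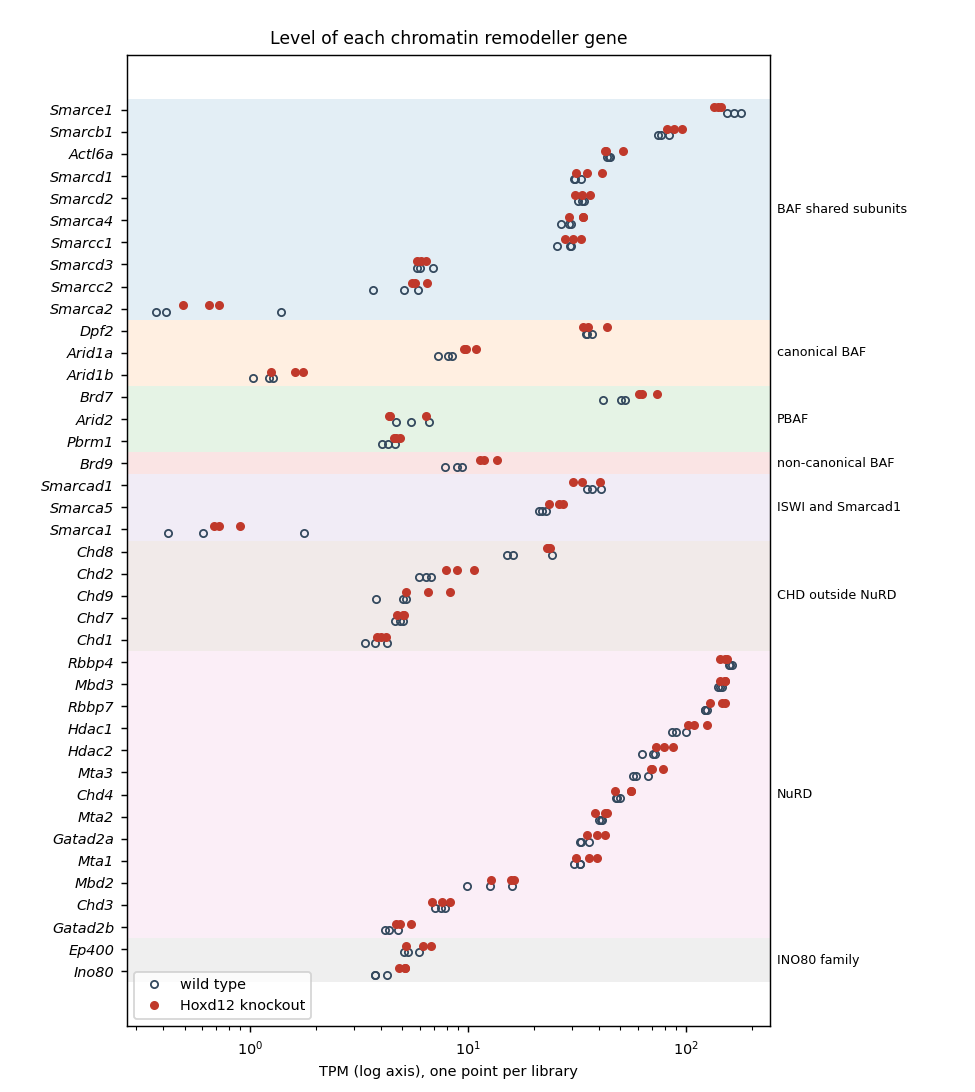
TPM of each of the 40 remodeller genes on a log axis, 1 point per library, grouped by complex and ordered by level, with wild type as open and knockout as filled points. Smarca2 and Smarca1 lie near or below 1 TPM in all libraries, with 1 wild-type library of each above the rest, while their paralogues Smarca4 and Smarca5 lie between 21.1 and 33.8 TPM.

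The question of the series is how the transcriptome of Hoxd12 knockout cells differs from wild type. Of 39 genes tested, 7 rose in the knockout (Chd9, Chd2, Brd9, Brd7, Arid1a, Hdac1 and Hdac2) and 1 fell (Smarce1), by edgeR's quasi-likelihood test at an adjusted p below 0.05 over all 12891 genes tested. The largest change, that of Chd9, was 1.42-fold. The members rose in 17.9% and fell in 2.56% of cases, where 12.1% of all tested genes rose and 14.4% fell, and 26.5% were called in either direction against 20.5% of the members. The median log2 fold change of the members was 0.04 and that of all tested genes 0.02.

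Changes were smaller in size among the members than among tested genes at large. The median absolute log2 fold change was 0.10 for the 39 members and 0.20 for all genes, and 34 members (87.2%) against 59.7% of genes moved by less than 0.25. The members were also more abundant, with a median of 87.1 CPM against 20.6 CPM, and were measured with a smaller median SE, 0.06 against 0.12 on the log2 scale. In 14 of the 39 the CPM values of the groups did not overlap, where 39.7% of all tested genes had groups that did not overlap. That share is close to the background and says nothing particular to remodellers.

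The counts depended on the method. DESeq2 called 4 rises (Brd7, Chd2, Chd9 and Hdac1) and 0 falls, where it called 5.44% of all genes higher and 9.98% lower. The limma test on log2(TPM + 1) called 3 rises (Brd7, Brd9 and Chd2) and the fall of Smarce1, where 8.59% of all genes were called higher and 5.81% lower. On log2(TPM + 0.1) it also called 3 rises and 1 fall, where the shares of all genes were 8.42% and 5.72%. With an offset for effective length edgeR called 3 rises and 2 falls, where 6.97% of all genes rose and 11.8% fell. Corrected for length and GC content it called 4 rises and 3 falls, where 11.3% rose and 13.1% fell.

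**Figure D2:**
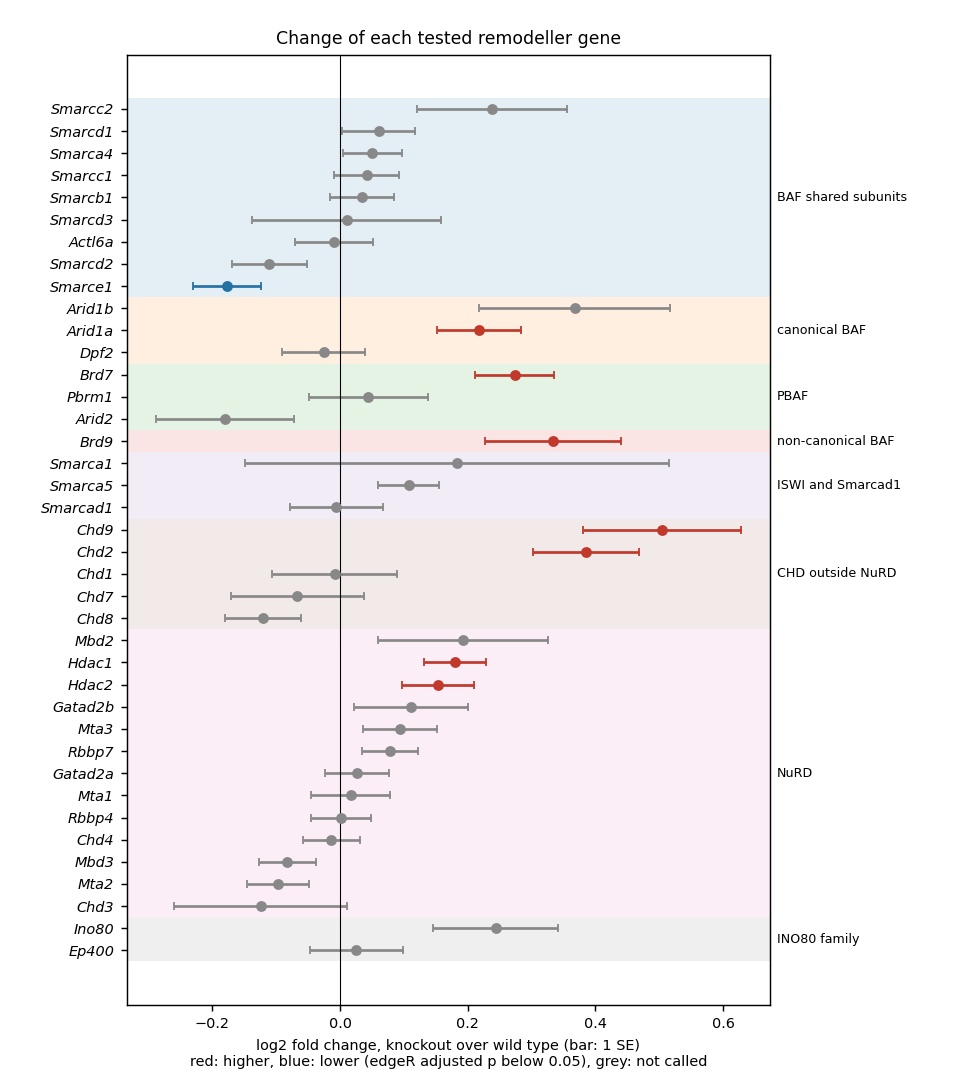
Log2 fold change of each of the 39 tested remodeller genes, knockout over wild type, with bars of 1 SE, grouped by complex. The genes called higher (red) run from 0.15 for Hdac2 to 0.50 for Chd9, the gene called lower (blue) is Smarce1 at -0.18, and the remaining 31 (grey) were not called.

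Of 9 shared BAF subunits tested, 0 rose and 1 fell, with a median log2 fold change of 0.03. Among all tested genes 12.1% rose and 14.4% fell. Smarca4 differed by 0.05 (SE 0.05, adjusted p = 0.455 by edgeR), Smarcb1 by 0.03 (SE 0.05) and Smarcc1 by 0.04 (SE 0.05). The actin-related subunit Actl6a differed by -0.01 (SE 0.06), Smarcd1 by 0.06, Smarcd2 by -0.11 and Smarcd3 by 0.01. Smarcc2, the less abundant scaffold paralogue, had 25.8, 27.0 and 28.3 CPM in the knockout and 24.6, 18.6 and 25.8 CPM in wild type. The groups touched at 25.8 CPM, 1 wild-type library was low, and the difference of 0.24 was not called (SE 0.12, adjusted p = 0.137 by edgeR).

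Smarce1 (ENSMUSG00000037935, chromosome 11, 99209047 to 99231017, GRCm38) was the subunit that fell. It had 141, 138 and 134 CPM in the knockout and 145, 154 and 168 CPM in wild type. All knockout libraries lay below all wild-type libraries, though wild-type replicate 1 was close to them. The log2 fold change was -0.18 (SE 0.05, adjusted p = 0.0118 by edgeR). Without wild-type replicate 3 it was -0.12 (adjusted p = 0.153), and without knockout replicate 3 it was -0.16 (adjusted p = 0.0630). On the chromosome, 199 tested genes within 10 Mb around Smarce1 had a median of -0.14, and 62 of them fell while 6 rose.

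Of the subunits that define the forms of BAF, 1 of 3 in canonical BAF (Arid1a) and 1 of 3 in PBAF (Brd7) rose. The 1 listed for non-canonical BAF (Brd9) rose as well, and 0 fell, where 12.1% of all tested genes rose and 14.4% fell. Arid1a (ENSMUSG00000007880, chromosome 4, 133679008 to 133756769) carries an ARID DNA-binding domain and marks canonical BAF. It had 82.6, 87.5 and 87.9 CPM in the knockout and 73.7, 68.6 and 79.8 CPM in wild type. The groups did not overlap, and the log2 fold change was 0.22 (SE 0.07, adjusted p = 0.0127 by edgeR). The call was lost without wild-type replicate 2 (0.17, adjusted p = 0.104), without knockout replicate 3 (0.20, adjusted p = 0.0525) and with a correction for transcript length (0.10, adjusted p = 0.249). It was also lost with the length and GC correction, the effective length offset, DESeq2 and both limma fits, so that 10 of 18 alternatives called it. Its paralogue Arid1b had 14.7, 12.5 and 16.3 CPM in the knockout against 11.2, 11.6 and 11.2 CPM in wild type. The groups did not overlap here either, but the difference of 0.37 missed the threshold (SE 0.15, adjusted p = 0.0671), and it passed without knockout replicate 2 (0.46, adjusted p = 0.0323). The third canonical subunit, Dpf2, a reader of acetylated histones, differed by -0.03 (SE 0.07).

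Brd7 and Brd9 encode related bromodomain proteins, which bind acetylated lysine. Brd7 belongs to PBAF and Brd9 to the non-canonical form of BAF, and both rose. Brd7 (ENSMUSG00000031660, chromosome 8, 88331039 to 88362194) had 96.5, 95.9 and 93.6 CPM in the knockout and 81.7, 73.3 and 81.6 CPM in wild type. The knockout libraries were tightly grouped and all above wild type, with a log2 fold change of 0.27 (SE 0.06, adjusted p = 0.00100 by edgeR). Brd9 (ENSMUSG00000057649, chromosome 13, 73937811 to 73960895) had 28.3, 29.3 and 28.6 CPM in the knockout and 23.9, 20.7 and 23.9 CPM in wild type. Again the groups did not overlap, and the log2 fold change was 0.33 (SE 0.11, adjusted p = 0.0188 by edgeR). Without wild-type replicate 2 the value was 0.27 (adjusted p = 0.104), and DESeq2 did not call it (adjusted p = 0.122). With the length and GC correction Brd9 was not called either, so that 15 of 18 alternatives called it.

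The other PBAF subunits were not called. Pbrm1, a protein with several bromodomains, differed by 0.04 (SE 0.09), and its gene overlaps that of Gnl3 on the opposite strand. Arid2, which marks PBAF, had 27.2, 34.4 and 27.2 CPM in the knockout and 29.5, 36.3 and 34.2 CPM in wild type. The libraries of each group overlapped and the difference of -0.18 was not called (SE 0.11, adjusted p = 0.230 by edgeR).

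**Figure D3:**
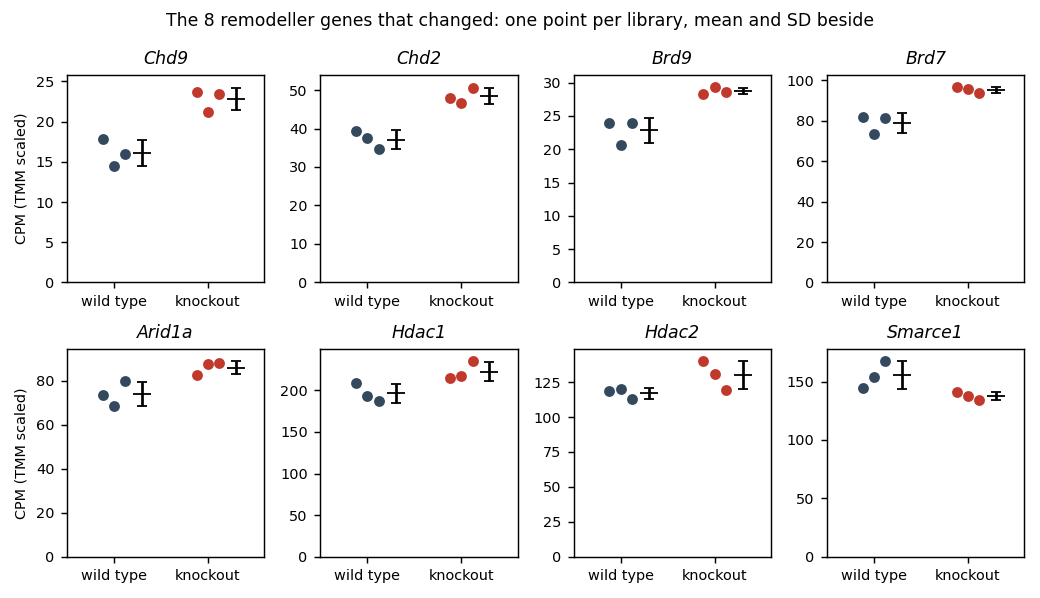
CPM of the 8 remodeller genes that changed, on axes from 0, with 1 point per library and the mean and SD beside each group. In every gene but Hdac2 the 3 knockout libraries lie on one side of the 3 wild-type libraries. The genes were chosen by their calls in these same libraries, and 39.7% of all tested genes had groups that did not overlap.

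In the CHD family outside NuRD, 2 of 5 genes rose and 0 fell, where 12.1% of all tested genes rose and 14.4% fell. Chd9 (ENSMUSG00000056608, chromosome 8, 90828352 to 91054516), a chromodomain helicase close to Chd7 and Chd8, had 23.7, 21.2 and 23.4 CPM in the knockout. In wild type it had 17.8, 14.5 and 16.0 CPM. Every knockout library exceeded every wild-type library, with a log2 fold change of 0.50 (SE 0.12, adjusted p = 0.00225 by edgeR). The call was lost on log2(TPM + 1) (0.42, adjusted p = 0.129) and with an offset for the effective length (0.39, adjusted p = 0.138). The deposited effective length of Chd9 varied between libraries without following the groups. It was 2743, 3614 and 3546 bases in the knockout and 4139, 2409 and 2706 bases in wild type.

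Chd2 (ENSMUSG00000078671, chromosome 7, 73426638 to 73541830) encodes a remodeller found on transcribed genes. It had 47.9, 46.7 and 50.6 CPM in the knockout and 39.3, 37.5 and 34.5 CPM in wild type. The groups were well apart, and the log2 fold change was 0.39 (SE 0.08, adjusted p = 0.000630 by edgeR). Chd2 and Brd7 were called in all alternatives run for them. The noncoding gene 1810026B05Rik overlaps Chd2 on the same strand and holds 17.3% of the 50-base windows of its transcripts, so counts can be split between them. That gene had 161, 157 and 144 expected counts in the knockout and 126, 117 and 138 in wild type, and by itself was not called (0.25, adjusted p = 0.121). With both genes summed, the log2 fold change was 0.34 (SE 0.07, adjusted p = 0.000262).

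The paralogues Chd1, Chd7 and Chd8 were not called. Chd1, known from open chromatin of stem cells, differed by -0.01 (SE 0.10), and Chd7, which binds enhancers, by -0.07 (SE 0.10). Chd8 had 89.0, 101 and 95.4 CPM in the knockout and 107, 104 and 98.8 CPM in wild type, a difference of -0.12 (SE 0.06, adjusted p = 0.139 by edgeR). In TPM, however, it had 23.1, 23.8 and 23.4 in the knockout and 24.2, 15.1 and 16.1 in wild type. The deposited effective length of Chd8 was 5897 and 5217 bases in wild-type replicates 2 and 3 and 3661 to 4039 bases in the other libraries. Its direction therefore differs between counts and TPM (0.37 on log2(TPM + 0.1), adjusted p = 0.155 by limma).

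In NuRD, 2 of 13 genes rose (15.4%) and 0 fell, where 12.1% of all tested genes rose and 14.4% fell. The 2 that rose encode its deacetylases. Hdac1 (ENSMUSG00000028800, chromosome 4, 129516104 to 129542713) had 214, 217 and 236 CPM in the knockout and 209, 193 and 188 CPM in wild type. The groups were separate, by a small margin between knockout replicate 1 and wild-type replicate 1. The log2 fold change was 0.18 (SE 0.05, adjusted p = 0.00513 by edgeR), and without wild-type replicate 3 it was 0.15 (adjusted p = 0.0583). The call was also lost with the effective length offset and both limma fits, so that 14 of 18 alternatives called Hdac1. The processed pseudogene Gm10093 holds 31.7% of the 50-base windows of the Hdac1 transcripts but had 0 counts in 5 of 6 libraries, and summing it left the change at 0.18.

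Hdac2 (ENSMUSG00000019777, chromosome 10, 36974544 to 37001889) had 140, 131 and 120 CPM in the knockout and 118, 120 and 113 CPM in wild type. Knockout replicate 3 lay within the wild-type range. The log2 fold change was 0.15 (SE 0.06, adjusted p = 0.0422 by edgeR) and the call closest to the threshold among the 8 genes. It was lost without any 1 library except knockout replicate 3 (adjusted p = 0.0581 to 0.296), and by DESeq2 (adjusted p = 0.220). Of 18 alternatives, 7 called it.

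The other 11 NuRD subunits were not called. Chd4 differed by -0.01 (SE 0.04, adjusted p = 0.860 by edgeR), at 370, 343 and 356 CPM in the knockout and 361, 356 and 362 CPM in wild type. Mbd3 differed by -0.08 (SE 0.04), Mta1 by 0.02, Mta2 by -0.10 and Mta3 by 0.09. The zinc finger subunits Gatad2a and Gatad2b, which bridge Chd4 to the deacetylase part, differed by 0.03 (SE 0.05) and 0.11 (SE 0.09). Mbd2 (0.19, SE 0.13), Chd3 (-0.12, SE 0.14) and Rbbp7 (0.08, SE 0.04) were not called. In Mta2, Rbbp7 and Gatad2b the groups did not overlap in CPM, with the knockout below wild type in Mta2 and above it in Rbbp7 and Gatad2b. With Hdac1, 4 of 13 NuRD genes had groups that did not overlap, where 39.7% of all tested genes had such groups.

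Rbbp4 depended on the scale. In CPM it had 294, 295 and 327 in the knockout and 314, 305 and 296 in wild type, a log2 fold change of 0.002. In TPM it had 151, 144 and 154 in the knockout and 160, 158 and 163 in wild type, so that on this scale all knockout libraries were lower. The deposited effective length was 1849, 1807 and 2100 bases in the knockout and 1734, 1657 and 1538 bases in wild type, longer in every knockout library. With an offset for this length, edgeR gave -0.22 (adjusted p = 0.00477).

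Of the remaining ATPases, 0 of 3 in the ISWI and Smarcad1 group and 0 of 2 in the INO80 family were called. The share called among all tested genes was 26.5%. Ino80, which repositions nucleosomes at promoters and replication forks, had 33.6, 34.0 and 32.3 CPM in the knockout and 29.9, 27.0 and 27.5 CPM in wild type. These groups did not overlap, but the difference of 0.24 missed the threshold (SE 0.10, adjusted p = 0.0636 by edgeR) and passed it in none of the alternatives. Smarca5, the main ISWI ATPase, had 166, 157 and 157 CPM against 150, 147 and 150 CPM, also without overlap, and was not called (0.11, SE 0.05, adjusted p = 0.0992). Groups without overlap were found in 39.7% of all tested genes. Ep400, the ATPase of the TIP60 complex, differed by 0.03 (SE 0.07) and Smarcad1 by -0.01 (SE 0.07). Smarca1, at 1.89 to 3.91 CPM, differed by 0.18 with an SE of 0.33, so that a change of moderate size was not detectable at this depth.

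The genomic position of a gene moved with part of these results. On chromosome 8 the median log2 fold change of 703 tested genes was 0.17, with 30.2% higher and 5.97% lower, and on chromosome 6 it was 0.16 over 600 genes. On chromosome 11 the median was -0.12 over 1050 genes, with 3.24% higher and 27.9% lower. Brd7 and Chd9 both lie on chromosome 8, in windows of 10 Mb whose other tested genes had medians of 0.12 and 0.20. Relative to the median of chromosome 8, Brd7 stood at 0.11 and Chd9 at 0.34. The other members on chromosome 8, Smarca5 (0.11) and Gatad2a (0.03), lay below its median.

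The 3 members on chromosome 11 were all lower in value, Smarce1 at -0.18, Chd3 at -0.12 and Smarcd2 at -0.11, close to the chromosome's median. Chd4 (-0.01) and Smarcad1 (-0.01), on chromosome 6, did not share that chromosome's upward median. Arid1a and Hdac1 (chromosome 4), Hdac2 (chromosome 10), Brd9 (chromosome 13) and Chd2 (chromosome 7) lie on chromosomes with medians between -0.01 and 0.03. When the genes of chromosomes 6, 8 and 11 were left out of the fit, these 5 were called and 0 of the 30 members left fell, where 10.5% of the genes left were higher and 13.6% lower. The part of chromosome position in the changes of Brd7, Chd9 and Smarce1 was not tested.

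**Figure D4:**
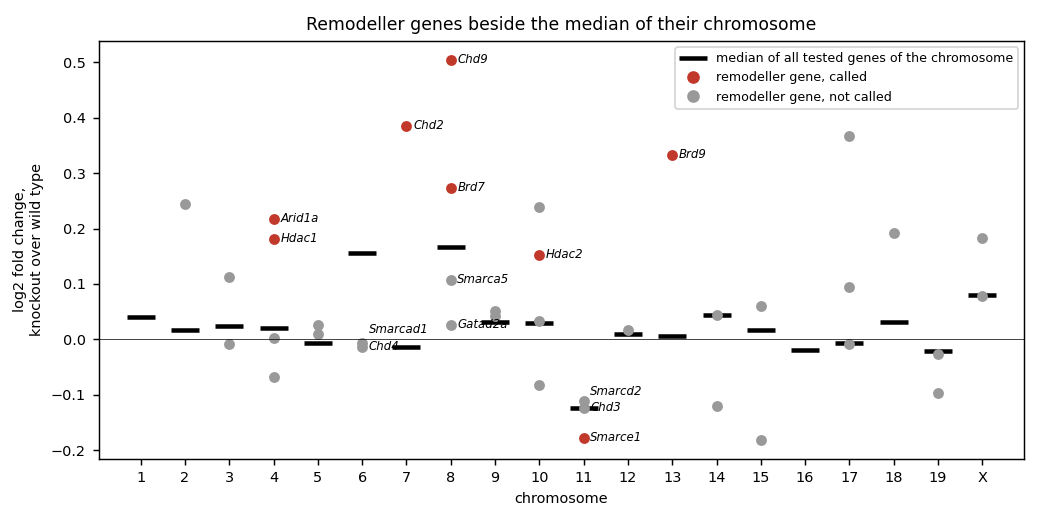
Log2 fold change of each tested remodeller gene by chromosome, with the called genes in red, and the median of all tested genes of each chromosome as a black bar. The medians of chromosomes 6 and 8 stand at 0.16 and 0.17 and that of chromosome 11 at -0.12, and Smarce1, Chd3 and Smarcd2 lie near the bar of chromosome 11.

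Transcript length also moved with the fold changes across the whole table. The shortest decile of tested genes, up to 877 bases, had a median of -0.20, with 4.34% higher and 36.9% lower. The longest decile, from 4963 bases, had a median of 0.11, with 15.7% higher and 5.28% lower. The deposited effective length, averaged over genes with TPM as the weight, was 929, 902 and 957 bases in the knockout libraries and 891, 875 and 869 bases in wild type, longer in every knockout library. Remodeller transcripts are long, with a median of 3305 bases against 2213 bases for all tested genes. Corrected for length by a loess curve in each library, the members' median moved from 0.04 to -0.02. The rises then numbered 6, without Arid1a, and the falls 4, where 11% of all genes were higher and 13.6% lower. Smarce1 was no longer called (-0.08, adjusted p = 0.231), while Chd4 (-0.11, adjusted p = 0.0266), Chd8 (-0.21, adjusted p = 0.00691), Mta2 (-0.15, adjusted p = 0.0180) and Smarcd2 (-0.15, adjusted p = 0.0459) were.

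**Figure D5:**
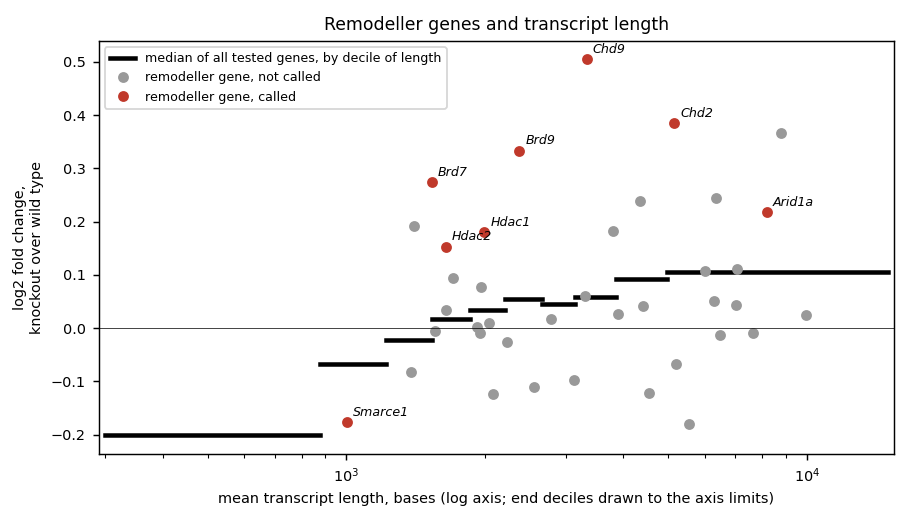
Log2 fold change of each tested remodeller gene against its mean transcript length on a log axis, with the medians of all tested genes in deciles of length as black bars. The bars climb from -0.20 for the shortest to 0.11 for the longest decile. All 7 genes called higher lie above the bars of their length, but they were picked for being higher.

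The balance between paralogues was compared in 16 pairs as the log2 ratio of TPM + 0.1 in each library. With 3 against 3 libraries a two-sided exact permutation test cannot go below p = 0.10, and adjusted over the pairs the lowest p was 0.533, so none could be called. In 3 of the 16 pairs the groups did not overlap, where 39.7% of all tested genes, taken singly and in CPM, did not overlap. The ratio of Chd1 to Chd2 averaged -1.17 ± 0.170 in the knockout and -0.74 ± 0.146 in wild type (SD, n = 3, exact p = 0.10), and the shift was similar in expected counts (-0.39). The ratio of Smarcd1 to Smarcd2 averaged 0.09 ± 0.0864 in the knockout and -0.07 ± 0.0541 in wild type (SD, n = 3, exact p = 0.10). Their shares thus moved from 48.9% to 51.6% Smarcd1.

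The third was Rbbp4 to Rbbp7, at 0.08 ± 0.0743 in the knockout and 0.38 ± 0.00987 in wild type (SD, n = 3, exact p = 0.10). In expected counts this difference shrank from -0.30 to -0.08 (exact permutation p = 0.40). In 13 pairs the groups overlapped in TPM. One of these, Chd8 to Chd9, did not overlap in expected counts, where its ratio differed by -0.62 (exact permutation p = 0.10), against -0.12 in TPM. Chd4 held 87.4% of the summed TPM with Chd3 in the knockout and 86.7% in wild type, Smarcc1 held 83.7% and 85.4% with Smarcc2, and Arid1a held 86.8% and 87.0% with Arid1b. Mbd3 held 90.9% and 91.8% with Mbd2.

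Promoter windows from RefSeq (GRCm38.p6, 250 bases before to 50 bases after the start) were matched by symbol for 31 of the 40 genes. They had a median GC content of 66.0% and 31 CpG dinucleotides, where the 32851 windows of the whole table had 52.7% and 7. That table is not limited to expressed genes. The windows of Smarcd3, Smarcc1, Smarcd2, Actl6a and Arid1b, 742 to 22409 bases from the GENCODE start, are included. The GC box GGGCGGG, searched on both strands, was in 19 of the 31 windows (61.3%) and in 25.6% of all windows. The ETS motif CCGGAAG was in 5 (16.1%, against 8.86%) and CCAAT in 10 (32.3%, against 37.4%). TATAAA was in 2 (6.45%, against 13.6%), including the distant window of Smarcd2. A match is a description of the letters and not a measured site.

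The windows of the 3 risen genes with the largest changes among those matched within 500 bases of the GENCODE start are shown for comparison, 5′ to 3′ on the strand of the gene. Capitals mark matches to any of these 4 motifs. They lie at chr8:90828585-90828884 (plus strand) for Chd9, chr13:73937561-73937860 (plus strand) for Brd9 and chr8:88362123-88362422 (minus strand) for Brd7.
Chd9: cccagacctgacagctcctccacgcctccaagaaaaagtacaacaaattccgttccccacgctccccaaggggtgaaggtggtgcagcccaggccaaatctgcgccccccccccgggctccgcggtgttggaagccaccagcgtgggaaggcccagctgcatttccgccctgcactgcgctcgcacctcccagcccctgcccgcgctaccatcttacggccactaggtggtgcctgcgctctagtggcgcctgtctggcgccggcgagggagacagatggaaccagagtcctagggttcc
Brd9: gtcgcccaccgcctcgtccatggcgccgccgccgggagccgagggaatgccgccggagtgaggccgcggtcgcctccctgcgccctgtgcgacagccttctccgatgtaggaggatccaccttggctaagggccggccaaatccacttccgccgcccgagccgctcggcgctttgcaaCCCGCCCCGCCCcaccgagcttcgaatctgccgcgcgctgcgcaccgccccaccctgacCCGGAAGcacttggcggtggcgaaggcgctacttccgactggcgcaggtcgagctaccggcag
Brd7: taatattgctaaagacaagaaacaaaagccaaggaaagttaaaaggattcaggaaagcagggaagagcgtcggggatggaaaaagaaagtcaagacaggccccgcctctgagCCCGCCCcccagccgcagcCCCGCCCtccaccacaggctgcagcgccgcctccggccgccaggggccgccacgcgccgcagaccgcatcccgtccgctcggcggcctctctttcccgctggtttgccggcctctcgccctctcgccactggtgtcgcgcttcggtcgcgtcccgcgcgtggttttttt
The window of Chd9 held none of the motifs and 19 CpG, that of Brd9 held an ETS motif and GC boxes with 40 CpG, and that of Brd7 held GC boxes with 31 CpG.

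Further subunits and partners of the same complexes were taken as 5 lists with 84 genes, of which 79 were tested. In them 11 rose and 10 fell, 26.6% in all, beside 26.5% of all tested genes. Of 11 tested BAF subunits outside the 40 genes, 1 rose and 2 fell. Bcl7a rose from 13.1 ± 0.758 to 19.0 ± 1.79 CPM (SD, n = 3; log2 fold change 0.54, adjusted p = 0.00285 by edgeR). Bcl7c, its paralogue, fell from 120.6 ± 3.74 to 100.2 ± 10.8 CPM (-0.27, adjusted p = 0.00133), and Actb, the actin of the complex and of the cytoskeleton, by 0.29 on the log2 scale (adjusted p = 2.14e-06). On log2(TPM + 1) Bcl7c was not called (-0.18, adjusted p = 0.112 by limma), and 16 of 18 alternatives called it. The neuronal subunits Actl6b (0.0582 CPM on average) and Dpf3 (0.425 CPM) did not pass the filter on low counts.

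Of 14 tested NuRD partners 4 rose and 2 fell, where 12.1% of all tested genes rose and 14.4% fell. Cdk2ap1, a small NuRD subunit, fell from 190.6 ± 4.65 to 155.9 ± 2.91 CPM (SD, n = 3; -0.29, adjusted p = 1.13e-05 by edgeR). On log2(TPM + 1) Cdk2ap1 was not called (-0.14, adjusted p = 0.167 by limma), and 16 of 18 alternatives called it. Sall1, a zinc finger protein that recruits NuRD and lies on chromosome 8, rose from 31.4 ± 3.34 to 41.3 ± 3.41 CPM (0.40, adjusted p = 0.00200). On log2(TPM + 1) Sall1 missed the threshold (0.45, adjusted p = 0.0549 by limma), and 15 of 17 alternatives called it. Cbx5, the heterochromatin protein HP1 alpha, rose by 0.17 (adjusted p = 0.00671) and lost its call with the length correction (0.08, adjusted p = 0.229). Of 10 tested ISWI partners 2 rose, Baz1b (0.22) and Hmgxb4 (0.24), and Baz1a fell (-0.84, adjusted p = 0.0186 by edgeR), which falls outside the naming rule by its mean of 4.47 CPM over all libraries and was chosen after its values were seen. Leaving out knockout replicate 1 or wild-type replicate 2 ended the call of Baz1b (adjusted p = 0.0663 and 0.0503). Corrected for length, edgeR gave Baz1b 0.13 (adjusted p = 0.124), and 10 of 18 alternatives called it. Leaving out knockout replicate 1, knockout replicate 3 or wild-type replicate 3 ended the call of Hmgxb4 (adjusted p = 0.0588 to 0.196). Hmgxb4 lies on chromosome 8 and stood 0.08 above the median of that chromosome. Corrected for length, edgeR gave it 0.20 (adjusted p = 0.0621), and 8 of 17 alternatives called it. Baz1a was not called without knockout replicate 2 or 3 or without wild-type replicate 2 (0.0514 to 0.104), and 11 of 18 alternatives called it.

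Of 29 tested subunits of INO80, SRCAP and TIP60 complexes 2 rose and 5 fell, where 12.1% of all tested genes rose and 14.4% fell. Uchl5, a deubiquitinase of INO80 and of the proteasome, fell from 180.2 ± 8.50 to 116.1 ± 1.51 CPM (SD, n = 3; -0.63, adjusted p = 1.06e-11 by edgeR), in all alternatives run. Znhit1 of SRCAP fell by 0.46 on the log2 scale (adjusted p = 5.24e-05), and the helicase Ruvbl2, shared by these complexes, by 0.24 (adjusted p = 8.30e-05). On log2(TPM + 1) Ruvbl2 was not called (-0.15, adjusted p = 0.0911 by limma), and 16 of 18 alternatives called it. Uchl5 and Znhit1 are in the shortest decile of transcripts, whose median was -0.20. Of 15 other SNF2-type helicases Zranb3 (0.31, adjusted p = 0.0141) and Hltf (0.37, adjusted p = 0.0227) rose and 0 fell. Zranb3 was not called when knockout replicate 3, wild-type replicate 1 or wild-type replicate 2 was left out (adjusted p = 0.0594 to 0.0777). Corrected for length, edgeR gave Zranb3 0.24 (adjusted p = 0.0693), and 9 of 18 alternatives called it. With 1 library left out, Hltf was called where that was replicate 2 of either group, and otherwise had an adjusted p of 0.0569 to 0.0920. Of 18 alternatives, 11 called Hltf.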

How the data were processed

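Polyadenylated RNA of 3 Hoxd12-/- and 3 wild-type libraries was sequenced from a stranded kit, per the labels. The files deposited by the authors give, per the file headers, length, effective length, expected counts (estimated counts, not scaled for depth), TPM and FPKM for each gene. TPM, deposited by the authors, is scaled by effective length, and the deposited FPKM entered no result. Bowtie 0.12.2 and both mm8 and mm10 appear in the submitters' processing notes. What tool counted reads is not given in the sources used here, nor are annotation and strand setting. All 55450 identifiers matched GENCODE M21 (GRCm38), which supplied symbols and coordinates.

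Expected counts were rounded and tested in R 4.3.3 with edgeR 4.0.16 (TMM scaling, filterByExpr, robust quasi-likelihood test, group as the only term). P-values were adjusted by Benjamini-Hochberg over 12891 genes and called below 0.05. SE is that of the log2 coefficient. CPM uses TMM-scaled library sizes. Depth was 5412577 to 6280934 counts.

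Genes, lists and tests were chosen with earlier results of these data known. All 40 genes are accounted for, those called with the value in every library. From each partner list, called genes with a mean of at least 5 CPM and the smallest p were named, up to 3. Alternatives were DESeq2 1.42.0, limma 3.58.1 on TPM, RLE scaling, other count filters, length and GC corrections, a replicate block, removal of chromosomes 6, 8 and 11, and each library left out. Summing genes that hold at least 5% of the 50-base windows of a transcript was added after seeing the data. Promoter windows were also searched for longer motifs, which are not reported. The fit was checked on simulated counts with known changes.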

Additional observations from a re-analysis of the deposited data

How the results depend on the processing

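Of the 39 tested genes, the number called higher was 7 by edgeR on all libraries and 4 to 7 with 1 library left out, the lowest without wild-type replicate 2. Over all genes those fits called 8.50% to 10.8% higher and 11.3% to 13.5% lower, also fewer than with all libraries. It was 3 with an effective length offset, 4 with a length and GC correction, 4 with DESeq2, and 3 with limma on TPM at either pseudocount (1 and 0.1). The number called lower was 1, and 0 or 1 with 1 library left out, 0 without knockout replicate 3 or wild-type replicate 3. It was 2 with the offset, 4 with the length correction, 3 with the length and GC correction, 0 with DESeq2, which gave an unadjusted p below 0.05 for 7 members in all, and 0 without chromosomes 6, 8 and 11, where Smarce1 is not in the fit. With the offset Rbbp4 turned from 0.002 to -0.22. The cause of these differences was not tested beyond that construction.

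Over all genes, 1559 were higher and 1861 lower, against 701 and 1287 with DESeq2, 898 and 1523 with the offset, and 1107 and 749 with limma on log2(TPM + 1), where the median of all genes was 0.10 and that of the members 0.15. RLE scaling, the other count filters and the summing of similar copies gave 6 or 7 rises and 1 fall. Over all genes those fits called 6.03% to 12.1% higher and 7.26% to 14.8% lower. The lowest shares were those without a count filter, over 25221 genes. Same-numbered libraries did not deviate together (correlations of 0.00359, 0.0413 and 0.0244 across genes). These correlations cannot tell whether such libraries were cultured or prepared together. With the replicate block 7 members were higher and 1 lower, where 11.7% of all genes were higher and 14.3% lower. Depth limits a single library to 0.462 to 0.567 CPM, the level of 3 counts.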
